A study of Mus musculus with 6 samples.

Results

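The comparison sets the hypothalamus of mice that lost Trsp under RIP-Cre against that of mice that lost it under Ins1-Cre, across all genes. It uses 4 of the 6 arrays of the series, 2 labelled Trsp-RIPKO and 2 labelled Trsp-Ins1KO, chosen because these 4 share a slide and a scan. All mice were male, on a C57BL/6J background and aged 16 weeks. Both knockout groups are homozygous for floxed Trsp and differ in the Cre transgene. The 2 TrspFF arrays carry the same floxed alleles with no Cre, lie on another slide and scan, and are given beside the results as context.

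Trsp is the gene of the transfer RNA that inserts selenocysteine, the amino acid at the active site of most selenoproteins. Many selenoproteins remove peroxides or reduce oxidised proteins, and a cell without this transfer RNA cannot make them. RIP-Cre is driven by a rat insulin promoter and is known to act in pancreatic beta cells and also in some hypothalamic neurons. Ins1-Cre is driven by the mouse Ins1 gene and is known for acting in beta cells with little activity in brain. The comparison addresses how hypothalamic RNA differs between a driver known to act there and one that is not. Cre activity itself was not measured. Whole hypothalamus was measured, so fewer cells of a type and less RNA per cell cannot be told apart. The labels do not say whether each array came from a separate animal, so the p-values reflect array-to-array spread alone, part or all of which could be technical.

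Group names follow the scanner files. In the deposited value table the names are exchanged: its Trsp-RIPKO columns match the scanner's Trsp-Ins1KO arrays, its Trsp-Ins1KO columns match the scanner's Trsp-RIPKO arrays, and they correlate at -0.22 and -0.20 with the arrays of their own label. With the table's naming every difference given here changes sign. No probe was named Trsp, so the deletion itself was not checked, and neither naming could be tested by it.

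A level is the log2 processed signal of a gene's brightest probe minus the log2 75th percentile of its array, so that 0 equals that percentile. Those percentiles lay between 1736 and 2137 on the 4 arrays, 68.9% to 72.0% of probes were well above background, and 0 probes were saturated. Genes that mark the hypothalamus were bright on all 4: oxytocin, Oxt, lay between 4.81 and 5.84, and orexin, Hcrt, between 4.62 and 5.16. The Trsp-Ins1KO arrays hold positions 1 and 2 of the slide and the Trsp-RIPKO arrays positions 3 and 4, so position and group cannot be told apart. On Trsp-RIPKO replicate 2, 22 spots within rows 36 to 115 and columns 59 to 85 had failed, among them those of Naa38, Cacybp and Ranbp1. The difference between the replicate arrays of a group had an SD of 0.40 in Trsp-RIPKO and 0.43 in Trsp-Ins1KO, and that between the group means an SD of 0.56.

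Between the knockouts 392 of 22477 genes passed (1.74%; limma, adjusted p under 0.05): 198 were higher in Trsp-RIPKO (0.881%) and 194 lower (0.863%). Of these, 307 (1.37%) differed at least 2-fold, 152 higher (0.676%) and 155 lower (0.690%). The median difference over all genes was -0.05, and 9481 differences (42.2%) were positive. Both arrays of one group lay above both of the other in 13271 genes (59.0%), 5190 of them higher (23.1%) and 8081 lower (36.0%), so lack of overlap alone is common here. At unadjusted p under 0.05 there were 5321 genes (23.7%), the share against which such counts for gene lists are to be read. With 2 arrays against 2 an exact permutation test of a single gene cannot go below 0.333.

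The calls rest on the choice of arrays and genes. Without Trsp-RIPKO replicate 1, 19 genes passed, 2 of them among the 392; without replicate 2, 0 passed (2837 at unadjusted p under 0.05); without Trsp-Ins1KO replicate 1 or 2, 518 and 457 passed. With no filter on dim probes 0 genes passed (smallest adjusted p 0.067, 4613 at unadjusted p under 0.05), with the TrspFF arrays in the fit 5 passed, and with trend and robust 1102. Of 53 called genes followed (the 24 largest with a usual symbol and the called list members), 0 passed without either one of the Trsp-RIPKO arrays, and 32 passed without Trsp-Ins1KO replicate 1 and 32 without replicate 2.

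**Figure D1:**
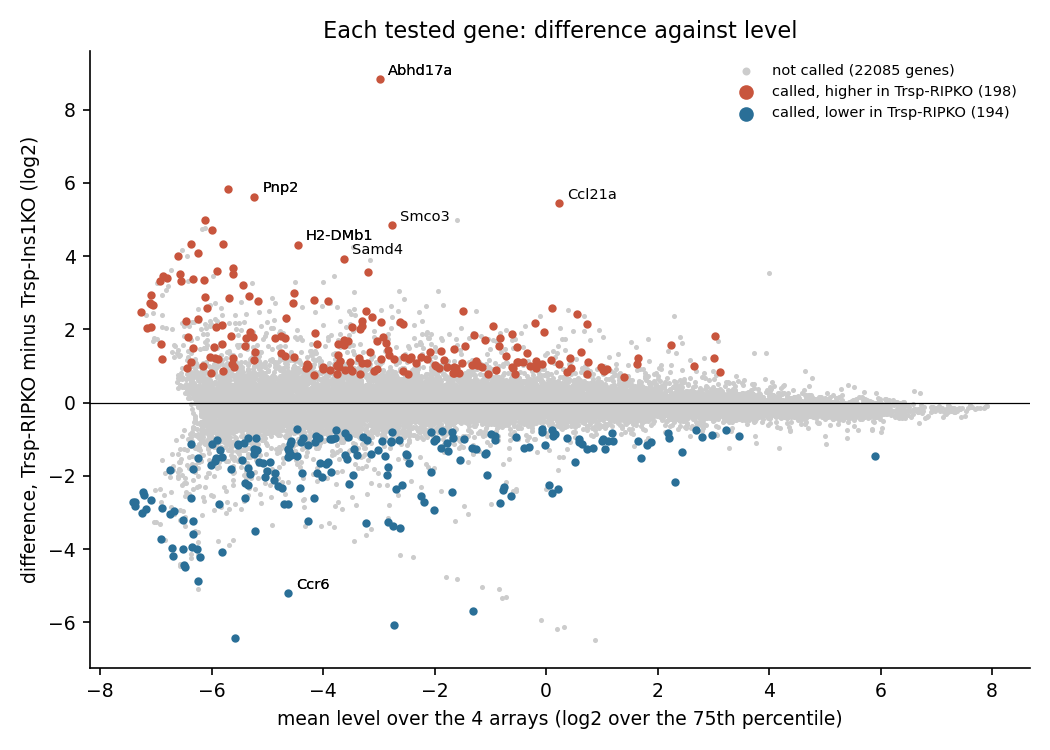
Each point is a tested gene, with its mean level over the 4 arrays on the x axis (log2 over the 75th percentile) and the difference Trsp-RIPKO minus Trsp-Ins1KO on the y axis (log2). The 198 genes called higher (red) and 194 called lower (blue) are spread over the dim and middle range. The difference of Abhd17a (8.84) exceeds all others, although its probe was not well above background in Trsp-Ins1KO. The grey diagonal at the lower right holds genes whose spot failed on Trsp-RIPKO replicate 2.

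Abhd17a, which encodes an enzyme that removes palmitate from proteins, had levels of 1.45 and 1.43 on the Trsp-RIPKO arrays and -6.60 and -8.20 on the Trsp-Ins1KO arrays. Its probe did not rise well above background in Trsp-Ins1KO, and it was at least 213-fold higher in Trsp-RIPKO (adjusted p = 0.0216, limma); for such a bound, each dim array is given the lowest signal it detected, or the probe's own where that is brighter. The group gap was many times the gap within either group. Its other probe differed by 9.07, also with neither Trsp-Ins1KO array well above background. Genes given by a bound entered the test only through the group where they were bright. Their adjusted p rests on signals not well above background in the other group. H2-DMb1, which helps load peptides on class II molecules, stood at -2.36 and -2.24 against -6.65 and -6.58, at least 15.9-fold higher (adjusted p = 0.00946). Pnp2, a purine nucleoside phosphorylase, was at least 14.6-fold higher, the spindle checkpoint kinase gene Bub1b at least 5.68-fold and the bile acid and hormone transporter gene Slco1a5 at least 3.56-fold. Slco1a5 did not pass with normexp background correction.

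Other large differences were measured on both sides. The chemokine gene Ccl21a had 2.83 and 3.07 in Trsp-RIPKO and -3.18 and -1.80 in Trsp-Ins1KO, a difference of 5.44 (SE 0.504, n = 2 per group, adjusted p = 0.0389, limma). Ccl21a and Ccl21b (1.81 higher) are near-identical copies, and the probes may not separate them. Smco3 was higher by 4.84 (SE 0.167), the RNA-binding protein gene Samd4 by 3.93 (SE 0.134), Baiap2l1, which shapes actin at the membrane, by 3.56 (SE 0.181), and the oocyte growth factor gene Gdf9 by 2.78 (SE 0.0826), at adjusted p from 0.00946 to 0.0157.

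Among genes lower in Trsp-RIPKO, the chemokine receptor gene Ccr6 had -7.59 and -6.86 there and -2.16 and -1.90 in Trsp-Ins1KO, at least 21.6-fold lower (adjusted p = 0.0165). Lrat, which makes retinyl esters, was at least 7.95-fold lower, Ttll2 at least 6.47-fold, the forkhead gene Foxl1 at least 5.15-fold, Ccnb1ip1 at least 4.56-fold and Unc5cl at least 4.53-fold. The heparan sulfate proteoglycan gene Sdc4 was bright enough on all arrays for a measured difference: -2.14 and -2.28 against 0.56 and 0.53, a difference of -2.75 (SE 0.0924, adjusted p = 0.00946). With normexp, Foxl1, Tmem154, Adh4, Ckm, Ppef2 and Zfp775 did not pass, nor did Foxl1 with quantile normalization or without either one of the Trsp-Ins1KO arrays. In all, 44 called genes were undetected over background in Trsp-RIPKO and 51 in Trsp-Ins1KO. Of 49 called genes with several kept probes, 43 had all probes of one sign and 34 had another probe showing a difference at least as large as 50% of the tested one.

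**Figure D2:**
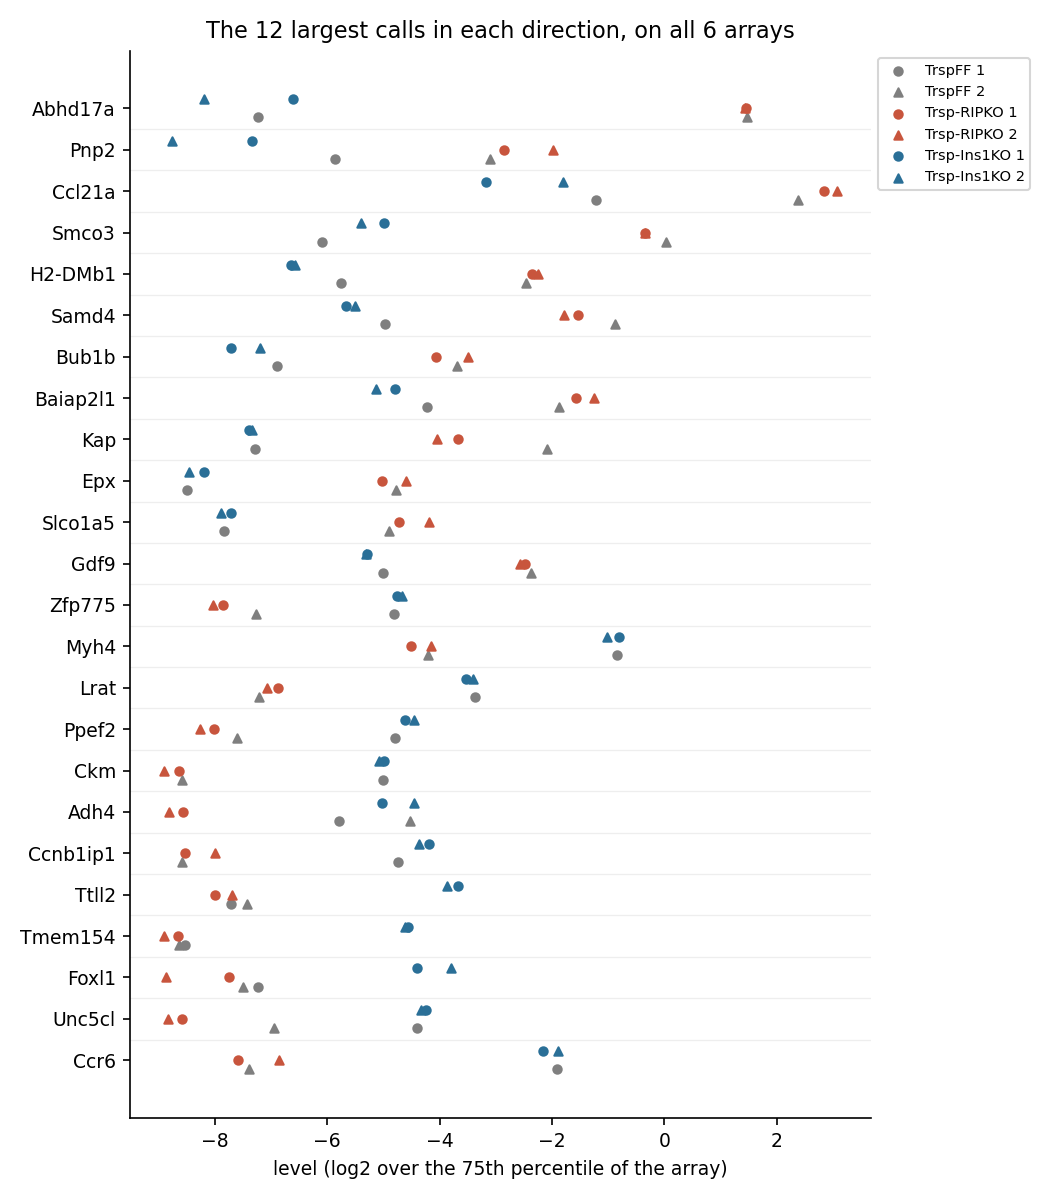
Levels (x axis, log2 over the 75th percentile of the array) of the 12 genes with a usual symbol and the largest calls in each direction, on each of the 6 arrays; colour gives the group and shape the replicate. The pairs of Trsp-RIPKO and Trsp-Ins1KO symbols do not overlap in any of the 24 genes, and for most genes TrspFF replicate 1 (grey circle) lies with Trsp-Ins1KO and replicate 2 (grey triangle) with Trsp-RIPKO.

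The 2 control arrays differed from each other at the same genes. In 325 of the 392 called genes (82.9%), TrspFF replicate 1 lay nearer the Trsp-Ins1KO mean and replicate 2 nearer the Trsp-RIPKO mean, against 5755 of the 22477 tested (25.6%). The TrspFF arrays differed at least 2-fold from each other in 237 called genes (60.5%) and in 977 of all tested genes (4.35%). Abhd17a had -7.23 and 1.47 on them, and Ccr6 -1.92 and -7.40. These controls took no part in choosing the calls. What the TrspFF split shares with the split between knockouts was not tested.

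Other called genes had both controls nearer the same knockout. In 49 called genes (12.5%) both TrspFF arrays lay nearer the Trsp-RIPKO mean, against 8168 tested genes (36.3%), and in 16 (4.08%) nearer the Trsp-Ins1KO mean, against 7603 (33.8%). Nearer does not mean that the controls matched that knockout in every such gene. Tmem154 was at -8.54 and -8.64 in TrspFF and -8.65 and -8.90 in Trsp-RIPKO but at -4.57 and -4.62 in Trsp-Ins1KO. Foxl1, Ttll2 and Sdc4 shared that order. Adh4, an alcohol dehydrogenase gene, went the other way, at -5.79 and -4.53 in TrspFF, -5.02 and -4.45 in Trsp-Ins1KO and -8.57 and -8.82 in Trsp-RIPKO. Ceacam16, a component of the inner ear's tectorial membrane, was at -5.05 and -5.30 in TrspFF and -5.48 and -5.63 in Trsp-Ins1KO, and at -3.96 and -3.62 in Trsp-RIPKO (a name given after its values were seen).

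**Figure D3:**
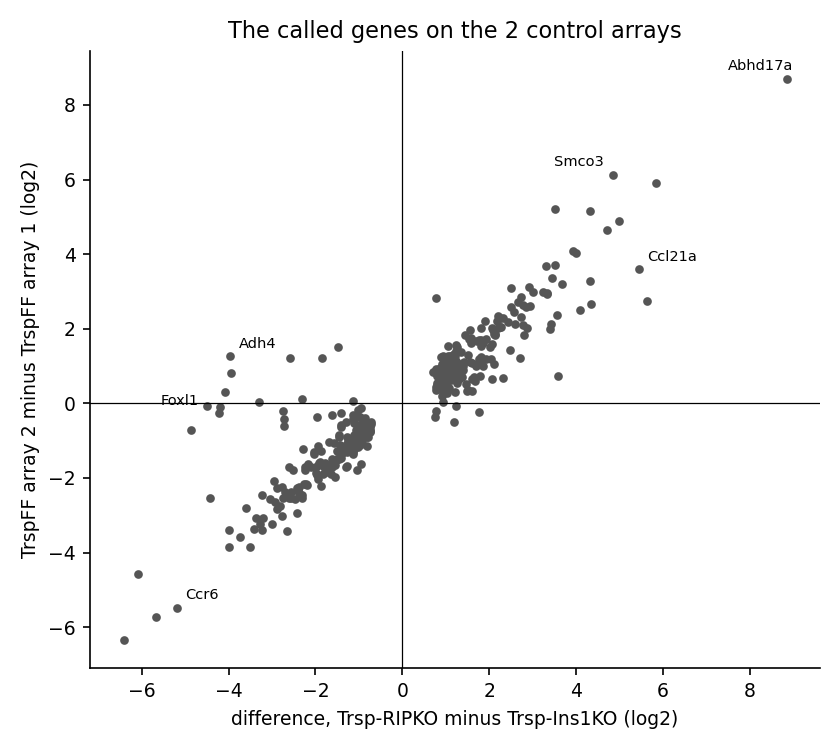
Each point is 1 of the 392 called genes, with the difference Trsp-RIPKO minus Trsp-Ins1KO on the x axis and TrspFF array 2 minus TrspFF array 1 on the y axis (both log2). Most points run along the diagonal from Ccr6 at the lower left to Abhd17a at the upper right, and a small group around Foxl1 and Adh4 lies near or above 0 on the y axis while well below 0 on the x axis.

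Interferons act through receptors that activate STAT and IRF factors, which bind a short element (the ISRE) before antiviral genes. Of 29 tested interferon response genes, 4 rose in Trsp-RIPKO and 0 fell (0.881% and 0.863% of all genes did). Their median difference was 0.77 against -0.05 for all genes, and 27 were positive (42.2% of all genes were). Their median level relative to each gene's mean on the 4 arrays was 0.11 and 0.56 in Trsp-RIPKO and -0.32 and -0.45 in Trsp-Ins1KO, with TrspFF at -0.35 and 0.03. Without Trsp-RIPKO replicate 2 the median difference was 0.50. The 5′ sequence before the start site of 6 members is shown because the list holds this element often. TTTC and TTTC with a pair of free bases between them (either strand) occurred in the 300-base promoter window of 12 of 23 members with an entry (52.2%) and of 1079 of 27025 genes (3.99%) in the RefSeq table of build GRCm38.p6. Matches are in capitals, and overlapping ones run together:
Igtp (chr11:58199502-58199551, + strand): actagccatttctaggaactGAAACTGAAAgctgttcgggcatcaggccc
Gbp3 (chr3:142559985-142560034, + strand): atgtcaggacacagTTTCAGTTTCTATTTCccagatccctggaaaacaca
Rsad2 (chr12:26456543-26456592, - strand): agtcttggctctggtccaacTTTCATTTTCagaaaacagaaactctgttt
Oas1a (chr5:120907526-120907559, - strand): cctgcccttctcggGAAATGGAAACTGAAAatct
Isg15 (chr4:156200855-156200904, - strand): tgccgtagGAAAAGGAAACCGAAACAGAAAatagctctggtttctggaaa
Ifit3 (chr19:34583387-34583436, + strand): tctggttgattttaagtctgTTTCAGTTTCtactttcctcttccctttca
Those shown had the largest differences of the 12 members with a match, and the differences of the others ran from 0.16 (B2m) to 0.77 (Bst2). A match is a description of these letters and not a shown site.

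Gbp3, an interferon-induced GTPase, had levels of -1.52 and -1.25 in Trsp-RIPKO and -2.82 and -2.73 in Trsp-Ins1KO, a rise of 1.39 (SE 0.127, adjusted p = 0.0378, limma). Igtp, which guards against parasites inside cells, stood at -0.78 and -0.64 against -1.66 and -1.83 (rise 1.04, SE 0.109, adjusted p = 0.0465). H2-K1, a class I molecule that shows peptides to T cells, rose by 0.96 (1.45 and 1.47 against 0.48 and 0.52, adjusted p = 0.0324) and Xaf1, which promotes cell death, by 0.95 (adjusted p = 0.045). Members that did not pass had values of 2.17 (Ifi44, adjusted p = 0.0706), 1.78 (Rsad2, which blocks viral replication, 0.0642) and 1.11 (Oas1a, a sensor of double-stranded RNA, 0.0674). Leaving out either one of the Trsp-Ins1KO arrays, 0 of the 4 passed, and Xaf1 did not with quantile normalization. Of class II genes, a list added after its values were seen, 3 of 9 tested were called higher (0.881% of all genes were): H2-DMb1, H2-Oa (1.76) and H2-Aa (at least 2.66-fold). Their list median was 0.06, a sign that was not kept. It was -0.06 without Trsp-RIPKO replicate 2, -0.05 without Trsp-Ins1KO replicate 2 and -0.14 with the filter on all 4 arrays. H2-Oa and H2-Aa did not pass with normexp. Class I and class II genes are a multigene family, and probes may share signal. Microglia and macrophages are known to express class II genes; their markers had a median of -0.15 with 0 of 20 called (3 at unadjusted p under 0.05, limma, below the share of all genes), -0.09 with quantile normalization and -0.10 without Trsp-Ins1KO replicate 2, and summed levels of 135 and 115 in Trsp-RIPKO and 139 and 138 in Trsp-Ins1KO; their part in the result was not tested.

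Brain endothelial cells form the blood-brain barrier with tight junctions and transporters. Of 22 tested endothelial genes, 6 rose in Trsp-RIPKO and 0 fell (0.881% and 0.863% of all genes did). Their median was 0.73, and 20 were positive, against 42.2% of all genes. Slco1a4, a transporter of organic anions, had -0.12 and -0.05 in Trsp-RIPKO and -1.36 and -1.35 in Trsp-Ins1KO, a rise of 1.26 (SE 0.0814, adjusted p = 0.0216). Slco1c1, which carries thyroxine into the brain, rose by 1.12 (SE 0.0886, adjusted p = 0.0302) and von Willebrand factor, Vwf, by 1.05 (SE 0.0826, adjusted p = 0.0298). The receptor kinase genes Tie1 and Tek, partners in angiopoietin signalling, rose by 1.61 and 0.98 and the vascular transcription factor gene Sox17 by 1.31 (adjusted p = 0.0324, 0.0411 and 0.0405).

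Summed on the linear scale, endothelial levels were 44.0 and 44.1 in Trsp-RIPKO, 30.5 and 34.6 in Trsp-Ins1KO, and 34.5 and 41.1 in TrspFF. Pericyte and vascular smooth muscle genes had a median of 0.45 (16 tested, 14 positive), and 1 rose (0.881% of all genes did). This was Kcnj8, a potassium channel subunit of pericytes. Its levels were -3.84 and -3.82 against -4.78 and -4.77 (rise 0.95, SE 0.0779, adjusted p = 0.0326, limma). Acta2, the smooth muscle actin, was at 0.81 (adjusted p = 0.103) and did not pass. Sox17 did not pass with quantile normalization, Tek with normexp, nor Slco1c1 with the mean of its probes, whose other probe differed by 0.25. Leaving out either one of the Trsp-Ins1KO arrays ended the calls of Slco1c1, Tek, Vwf and Kcnj8, and leaving out replicate 1 that of Tie1; Kcnj8 did not pass with normexp. Slco1c1, Slco1a4 and Slco1a5 are neighbours on chromosome 6.

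**Figure D4:**
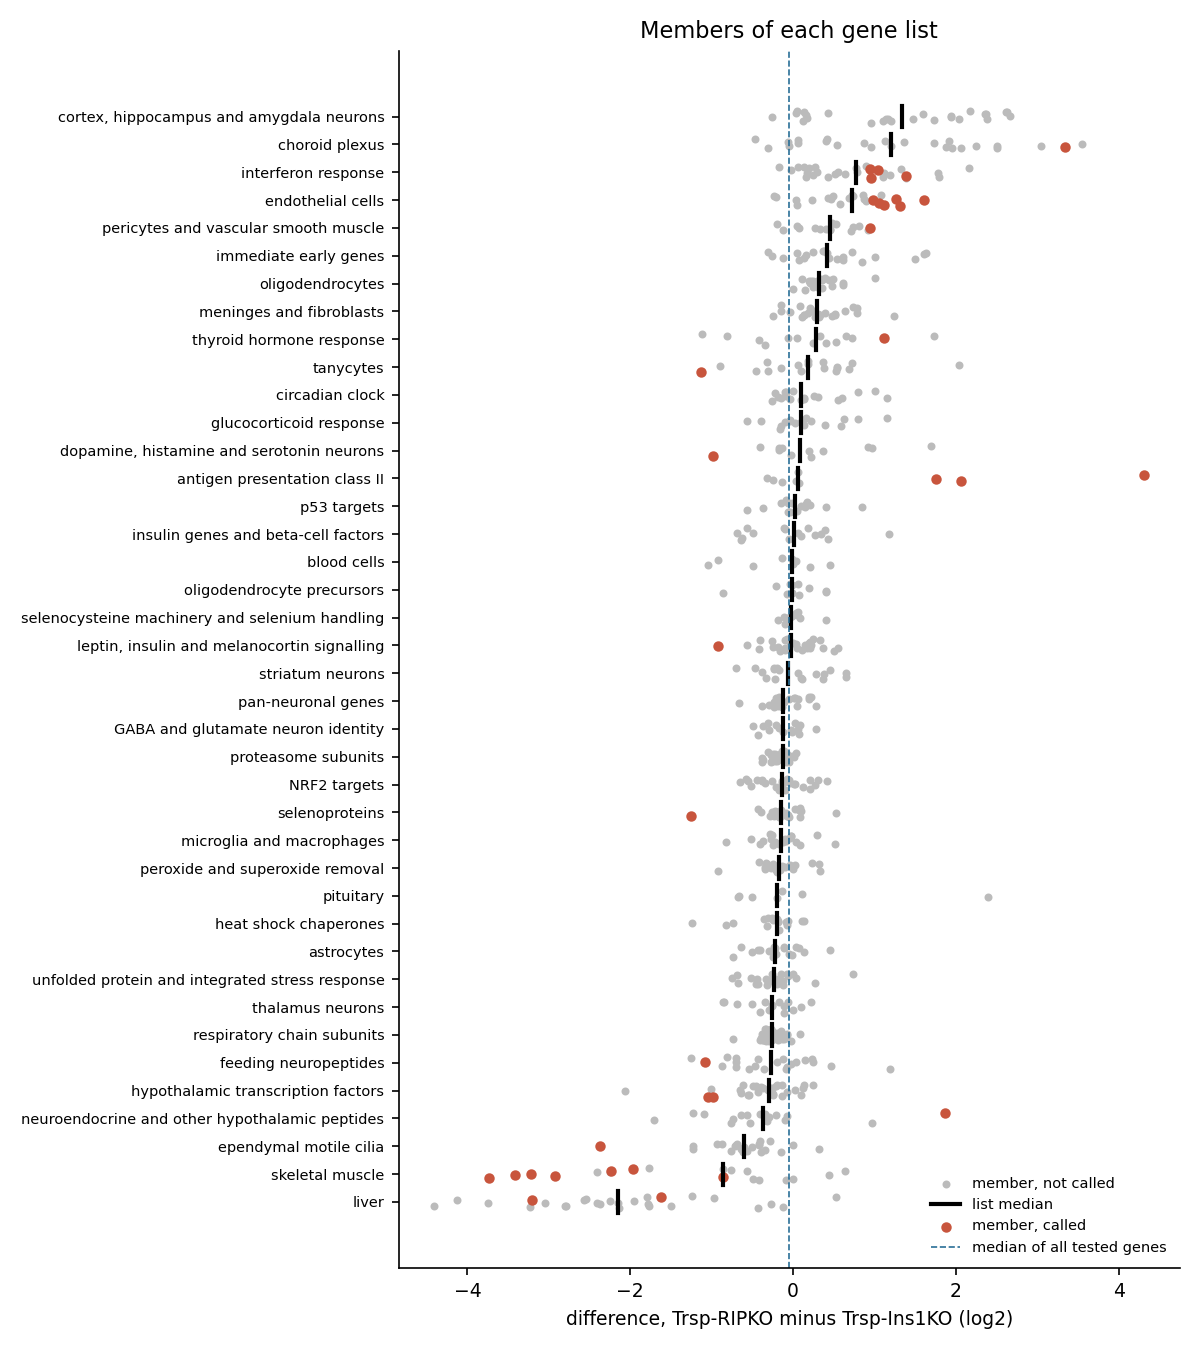
Each row is a gene list and each point a tested member, with the difference Trsp-RIPKO minus Trsp-Ins1KO on the x axis (log2); red points passed the test, black bars are list medians and the dashed line is the median of all tested genes. Medians run from -2.15 (liver) to 1.34 (cortex, hippocampus and amygdala neurons). Skeletal muscle (7 of 19 tested), endothelial (6 of 22) and class II (3 of 9) lists hold several red points, where 1.74% of all genes were called. The liver, skeletal muscle and class II lists were added after values were seen.

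Markers of tissue beside the hypothalamus also differed between arrays, in several lists through 1 array. Genes of cortical, hippocampal and amygdalar neurons had a median of 1.34 (25 of 26 positive) with 0 called (10 at unadjusted p under 0.05, limma). Slc17a7, the vesicular glutamate transporter of these neurons, had -0.03 and 0.02 in Trsp-RIPKO and -1.17 and -1.77 in Trsp-Ins1KO (difference 1.47, SE 0.227, adjusted p = 0.0786), and Mef2c, a transcription factor gene of excitatory neurons, a difference of 1.59 (adjusted p = 0.0706). The summed levels of the list were 56.5 and 54.1 in Trsp-RIPKO and 36.7 and 20.1 in Trsp-Ins1KO. Without Trsp-Ins1KO replicate 2 the median was 0.61, and without replicate 1 it was 1.84.

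The choroid plexus secretes cerebrospinal fluid and expresses transthyretin, Ttr, at very high levels. Ttr stood at 5.64 and 5.89 in Trsp-RIPKO and at 5.39 and -0.95 in Trsp-Ins1KO (difference 3.55, SE 2.25, adjusted p = 0.397), so that a single array was low. The list had a median of 1.20 (25 tested, 21 positive) and 1 called gene, Slco1a5, which rose (0.881% of all genes did). Its summed levels were 101 and 117 in Trsp-RIPKO, 87.4 and 24.7 in Trsp-Ins1KO, and 158 and 99.5 in TrspFF. Without Trsp-Ins1KO replicate 2 the median was 0.34, and without replicate 1 it was 2.29. Sostdc1, a secreted inhibitor of BMP and Wnt, had 0.46 and -0.32 against -1.03 and -2.94 and did not pass (adjusted p = 0.21).

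Ependymal cells line the ventricles and beat motile cilia. Of 24 tested cilia genes 22 were negative (median -0.61) and 1 fell in Trsp-RIPKO (0.863% of all genes did). This was Rsph1, a radial spoke protein. Rsph1 had -1.28 and -0.67 against 1.52 and 1.27 (difference -2.37, SE 0.248, adjusted p = 0.0465, limma), with its other probe at -2.73. It did not pass without either one of the Trsp-Ins1KO arrays. Without Trsp-RIPKO replicate 1 the list median was -0.21; relative to each gene's mean the list stood at -0.56 on that array and 0.00 on Trsp-RIPKO replicate 2. Tekt4, a tektin of the axoneme, had a difference of -0.88 (adjusted p = 0.0821). Oligodendrocyte genes went the other way, 21 of 21 positive with a median of 0.32 and 0 called (7 at unadjusted p under 0.05, limma); the median was 0.18 without Trsp-Ins1KO replicate 1.

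Skeletal muscle and liver genes, both lists added after values were seen, held the lowest list medians. Of 19 tested skeletal muscle genes (median -0.86) 7 fell and 0 rose, where 0.863% of all genes fell and 0.881% rose. That count depends on the genes chosen: outside the list, Tnni1, the troponin I of slow muscle, and Ldb3, a Z-disc protein, were higher in Trsp-RIPKO by 2.50 and 1.25 (adjusted p = 0.0458 and 0.0418; named after their values were seen). Tnni2, a troponin of fast muscle, had -3.48 and -3.45 in Trsp-RIPKO and -0.48 and -0.60 in Trsp-Ins1KO (difference -2.93, SE 0.0879, adjusted p = 0.00946), and the fast myosin gene Myh4 -4.52 and -4.15 against -0.81 and -1.02 (difference -3.42, SE 0.168, adjusted p = 0.0147). Creatine kinase of muscle, Ckm, was at least 2.69-fold lower. The TrspFF arrays also differed from each other here, with -1.04 and -3.68 for Tnni2, -0.85 and -4.21 for Myh4 and -5.01 and -8.58 for Ckm. Relative to each gene's mean on the 4 knockout arrays, the muscle list stood at 0.56 and -0.72 in TrspFF. It stood at -0.49 and -0.46 in Trsp-RIPKO and at 0.59 and 0.54 in Trsp-Ins1KO. Of 27 tested liver genes 26 were negative (median -2.15), and Hal, which degrades histidine, and Ftcd, an enzyme of folate and histidine metabolism, fell; Hal was at least 2.92-fold lower and Ftcd fell by 1.62 (adjusted p = 0.0442). Hal and Ftcd did not pass with normexp or without either one of the Trsp-Ins1KO arrays; Ckm and Mybpc2 did not with normexp, and Cacna1s did not without either Trsp-Ins1KO array. The liver median was -1.19 with normexp, -1.49 without Trsp-Ins1KO replicate 1 and -2.94 without Trsp-Ins1KO replicate 2. Summed liver levels were 10.4 and 11.7 in Trsp-RIPKO, 27.5 and 13.1 in Trsp-Ins1KO, and 23.7 and 11.0 in TrspFF. Albumin, Alb, stood at -3.02 and -2.81 in Trsp-RIPKO, 0.92 and -0.66 in Trsp-Ins1KO, and 0.61 and -2.88 in TrspFF (difference -3.05, adjusted p = 0.103). The part of these markers in the other results was not tested.

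**Figure D5:**
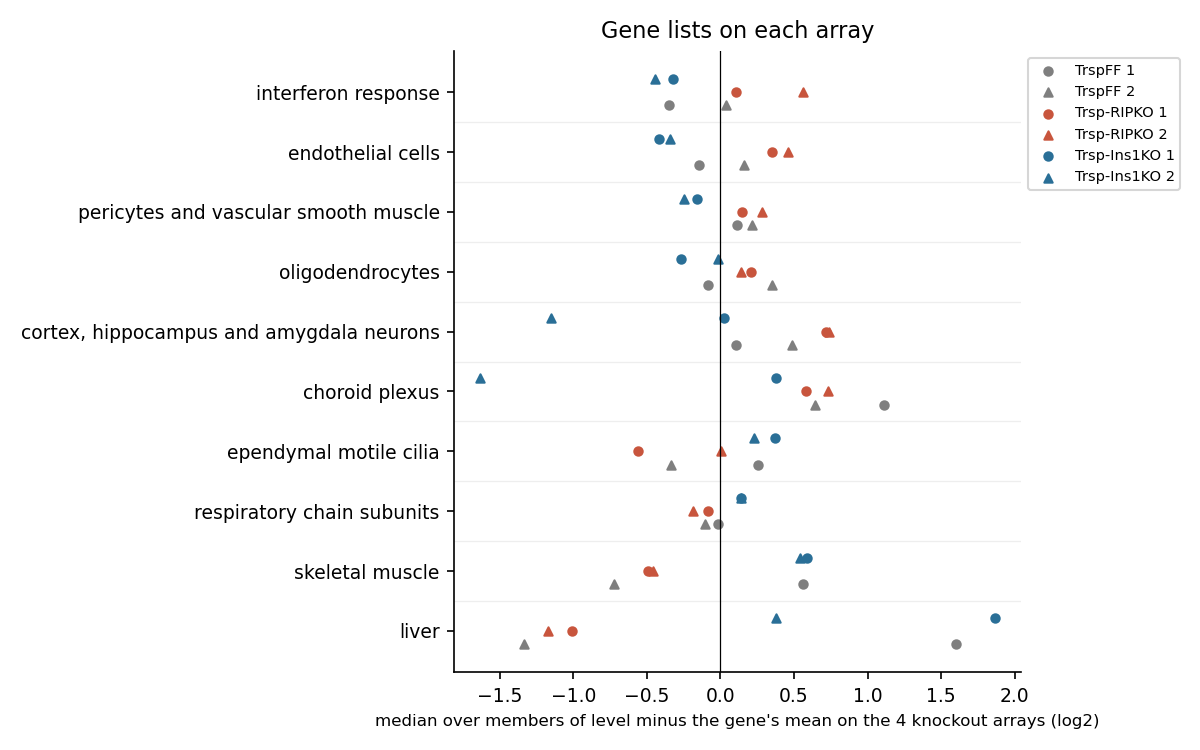
For 10 gene lists, the median over members of the level minus the gene's mean on the 4 knockout arrays (x axis, log2), for each of the 6 arrays; colour gives the group and shape the replicate. Trsp-RIPKO lies right of Trsp-Ins1KO for the interferon, endothelial, pericyte and oligodendrocyte lists and left of it for the respiratory chain, muscle and liver lists, while in the choroid plexus and cortical lists Trsp-Ins1KO replicate 2 (-1.63 and -1.15) stands far from the other arrays.

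Selenoproteins need Trsp for translation, and arrays measure their transcripts. Of 23 tested, 1 passed between the knockouts, where 1.74% of all genes did. Gpx3, the glutathione peroxidase of plasma and extracellular fluid, had levels of 0.10 and 0.12 in Trsp-RIPKO and 1.30 and 1.44 in Trsp-Ins1KO, a difference of -1.25 (SE 0.0922, n = 2 per group, adjusted p = 0.0262, limma). The groups did not overlap; the TrspFF arrays had 0.85 and -0.17. The list median was -0.14 against -0.05 for all genes. Of the list, 6 were positive and 17 negative, where 42.2% of all genes were positive. The list median was -0.07 with quantile normalization and -0.04 without Trsp-Ins1KO replicate 2. Selenop, the carrier of selenium in blood and brain, had 4.32 and 4.20 against 4.60 and 4.70 (difference -0.39, SE 0.0957, adjusted p = 0.141), and the deiodinase gene Dio2, which activates thyroid hormone in tanycytes, 1.08 and 1.38 against 0.61 and 0.81 (0.52, adjusted p = 0.168).

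The remaining selenoprotein transcripts differed by -0.43 to 0.10 between the knockouts. Gpx4, which protects membrane lipids, had 4.92 and 4.98 against 5.08 and 5.11, and Gpx1, the main cytosolic peroxidase, 3.57 and 3.66 against 3.65 and 3.81. The thioredoxin reductase genes Txnrd1 and Txnrd2 differed by -0.14 and -0.24, and the brain selenoprotein genes Selenow and Selenom by -0.07 and -0.09. Selenoh and Selenov differed by -0.29 and -0.43, Selenok, Selenof, Selenot, Selenon and Msrb1 by -0.25 to -0.16, and Gpx2, Selenos, Selenoo, Selenoi, Txnrd3, Dio1 and Sephs2 by -0.06 to 0.10. None of these passed, which does not show equal levels. The machinery of selenocysteine synthesis and selenium handling had 0 of 12 called (1 at unadjusted p under 0.05, limma), with a median of -0.02 that was 0.02 with quantile normalization.

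Other redox genes had lower values in Trsp-RIPKO without passing. Of 21 genes of peroxide and superoxide removal 17 were negative (median -0.17, 0 called, 6 at unadjusted p under 0.05, limma), with a median of -0.06 after quantile normalization and -0.10 without Trsp-Ins1KO replicate 2; glutaredoxin, Glrx, had 0.20 and 0.56 against 1.38 and 1.21 (adjusted p = 0.0926) and superoxide dismutase, Sod1, differed by -0.34. Of 29 NRF2 targets 21 were negative (median -0.13 and -0.05 with quantile normalization, 0 called, 9 at unadjusted p under 0.05), and 58.6% did not overlap against 59.0% of all genes, with the glutathione transferase gene Gstm6 at 0.67 and 0.62 against 1.28 and 1.30 (difference -0.65, adjusted p = 0.0583). Both TrspFF arrays lay below both knockouts for Gstm6, at -0.04 and 0.31.

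Hypothalamic neurons signal hunger, satiety and hormone release through peptides. Of 22 tested feeding peptide genes 16 were negative. Their median was -0.28 (-0.15 with normexp and -0.18 without Trsp-Ins1KO replicate 1). The 1 that fell, where 0.863% of all genes did, was galanin, Gal, which promotes feeding. Gal had 1.43 and 1.26 in Trsp-RIPKO against 2.45 and 2.39 in Trsp-Ins1KO (difference -1.08, SE 0.1, adjusted p = 0.0391, limma). Melanin-concentrating hormone, Pmch, had 3.77 and 3.34 against 4.78 and 4.83 (difference -1.25, adjusted p = 0.0679), and substance P, Tac1, a difference of -0.71 (0.0585). Npy, a strong signal of hunger, was higher in value, at 1.01 and 1.26 against 0.32 and -0.44 (1.19, adjusted p = 0.142). Of 18 neuroendocrine and other peptides 16 were negative (median -0.37), and the 1 that passed rose (0.881% of all genes did). This was cortistatin, Cort, at 0.12 and 0.53 against -1.44 and -1.63 (rise 1.87, SE 0.178, adjusted p = 0.0405, limma). The TrspFF arrays had 2.06 and 1.25 for Gal and -1.16 and -0.15 for Cort, so the controls differed from each other at both genes. Cortistatin is known mainly from cortical and hippocampal interneurons, and markers of that region had a median of 1.34. Their part was not tested. Gal and Cort did not pass without either one of the Trsp-Ins1KO arrays.

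Transcription factors that pattern the hypothalamus had mostly lower values in Trsp-RIPKO (27 of 32 negative, median -0.29). Of these 32, 2 fell, where 0.863% of all genes did. Hmx2, needed for neurons that make growth hormone-releasing hormone, had -5.02 and -5.18 against -4.10 and -4.01 (difference -1.05, SE 0.101, adjusted p = 0.0408) and Six6, a regulator of pituitary and eye development, -4.44 and -4.29 against -3.31 and -3.45 (difference -0.99, SE 0.106, adjusted p = 0.0482). The TrspFF arrays had -4.32 and -4.90 for Hmx2 and -3.63 and -4.42 for Six6. The related Hmx3 differed by -1.01 (adjusted p = 0.0585). Hmx2 did not pass with normexp or quantile normalization, nor Six6 with normexp, and neither passed without either one of the Trsp-Ins1KO arrays. Of 12 genes of dopamine, histamine and serotonin neurons 6 were positive and 6 negative (median 0.08, from -0.34 without Trsp-Ins1KO replicate 1 to 0.42 without replicate 2). Hdc, which makes histamine, fell by 0.98 (0.00 and 0.20 against 1.11 and 1.05, adjusted p = 0.0482), while Aldh1a1, a retinaldehyde dehydrogenase gene of dopamine neurons, had a difference of 1.69 and did not pass (adjusted p = 0.18). Of 18 tanycyte genes 12 were positive (median 0.18; 0.03 without Trsp-Ins1KO replicate 2, 0.32 without Trsp-RIPKO replicate 1 and 0.30 without Trsp-Ins1KO replicate 1). The 1 that passed ran against most of the list, and 0.863% of all genes fell. It was Cd59a, a complement inhibitor, which fell by 1.14 (adjusted p = 0.0313, limma). TrspFF had 0.59 and 0.23 for Hdc and 1.16 and -0.14 for Cd59a. Hdc did not pass without either one of the Trsp-Ins1KO arrays, nor Cd59a without replicate 2.

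Leptin and insulin restrain feeding through their receptors and the melanocortin pathway. Of 31 tested genes 1 fell (0.863% of all genes did), Mrap2, a partner of melanocortin receptors. Mrap2 had -1.42 and -1.32 against -0.52 and -0.38 (difference -0.92, SE 0.0976, adjusted p = 0.0469, limma), with its other probe at -0.93. It did not pass with median scaling or without either one of the Trsp-Ins1KO arrays. TrspFF had -0.54 and -1.56 for Mrap2. The list median was -0.03, and 0.02 with quantile normalization. The leptin receptor gene Lepr had -0.75 and -0.98 against -0.35 and -0.55 (adjusted p = 0.185), with other probes from 0.12 to 1.15, and Socs3, which blocks leptin signalling, -1.86 and -1.77 against -1.95 and -1.75. The insulin genes were dim: Ins2 stood at -2.44 and -2.32 against -2.79 and -2.65 (adjusted p = 0.17), and Ins1 at -4.41 and -3.84 against -4.59 and -6.02 (adjusted p = 0.286). Ins1 and Ins2 are close in sequence, and their probes may share signal. Of 14 thyroid hormone response genes 9 were positive and 5 negative (median 0.29), and 1 rose (0.881% of all genes did). That gene was Slco1c1, the same call as among the endothelial genes, with the limits given there.

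Genes of the mitochondrial respiratory chain had lower values in Trsp-RIPKO almost throughout: 44 of 45 were negative, 42 did not overlap (93.3% against 59.0% of all genes; 41 of them lower), at a median of -0.26, and 0 were called (22 at unadjusted p under 0.05, limma). Ndufb8, a subunit of complex I, had 5.52 and 5.45 against 6.33 and 6.12 (difference -0.74, adjusted p = 0.0745). The median was -0.12 with quantile normalization. Proteasome subunits (29 of 31 negative, median -0.13, -0.04 with quantile normalization) and genes of the unfolded protein and integrated stress response (21 of 24 negative, median -0.23) had 0 called, with 6 and 9 at unadjusted p under 0.05, the first a smaller share than that of all genes (23.7%). The stress response median was -0.15 without Trsp-Ins1KO replicate 2. Hspa5, the main chaperone of the endoplasmic reticulum, differed by -0.52 (adjusted p = 0.111).

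Of 17 heat shock chaperones 15 were negative (median -0.20 and -0.12 with quantile normalization, 0 called, 5 at unadjusted p under 0.05, limma). Hspe1, the lid of the mitochondrial chaperonin, had 2.70 and 2.63 in Trsp-RIPKO, 3.67 and 4.12 in Trsp-Ins1KO, and 2.90 and 2.83 in TrspFF (difference -1.24, SE 0.178, adjusted p = 0.0706). Its partner Hspd1 differed by -0.24, although the 2 genes start head to head from 1 promoter, which is shown for that reason. Capitals mark overlapping matches to a heat shock element, GAA, TTC and GAA with a pair of free bases between each, on either strand:
Hspe1 (chr1:55088044-55088093, + strand): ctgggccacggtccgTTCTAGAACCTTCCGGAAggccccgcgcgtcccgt
This element occurred in the promoter window of 3 of 11 chaperones with an entry (27.3%) and of 179 of 27025 genes (0.662%).

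Immediate early genes, which neuronal activity switches on, had mostly higher values in Trsp-RIPKO. Of 21 immediate early genes 18 were positive (median 0.42), with 0 called (5 at unadjusted p under 0.05, limma, about the 23.7% of all genes). Arc, a regulator of synaptic strength, had 3.18 and 3.35 against 2.47 and 0.80 (difference 1.63, adjusted p = 0.217) and Egr2 1.61 (0.211); in both, Trsp-Ins1KO replicate 2 was lowest. Without it the list median was 0.19. Of 19 circadian clock genes 11 were positive and 8 negative (median 0.10; 0.04 to 0.10 with 1 array left out), with 0 called (6 at unadjusted p under 0.05, limma). The clock gene Per1 had 3.18 and 3.14 against 1.80 and 2.21 (difference 1.15, adjusted p = 0.0706) and the clock repressor gene Nr1d1 -0.51 and -0.45 against -1.09 and -1.07 (0.60, adjusted p = 0.0653), while the clock repressor gene Nfil3 had -0.14 and -0.11 against 0.06 and 0.20 (-0.25, adjusted p = 0.215). Hours of collection are not in the labels used here.

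Called genes were unevenly spread over chromosomes, by gene position in the RefSeq table of build GRCm38.p6. Of all tested genes 1.74% passed. On chromosome 14, 27 of 545 tested genes passed (4.95%), on chromosome 6, 26 of 789 (3.30%) and on chromosome 17, 23 of 764 (3.01%). On chromosome 8, 1 of 803 passed (0.125%). Neighbours were called together, named here after their values were seen. On chromosome 6 Aebp2, Slco1c1, Slco1a4, Slco1a5, Recql and Kcnj8, 6 of a run of 12 tested genes, were all higher in Trsp-RIPKO. On chromosome 14 Pnp2, Ang and Rnase6 were higher and Rnase4 and Rnase1 lower, 5 of 6 tested; Rnase4 stood at -2.18 and -1.63 against 0.36 and 0.46. Another chromosome 14 run, 5 of 12 tested, held Gm10413, Gm5796, 4930555G01Rik and Gm5797, all lower, and Pdhb, higher. On chromosome 17 H2-K1, H2-Oa and H2-DMb1 were all higher. The 4 Y-linked genes tested had 0 called (1 at unadjusted p under 0.05, limma), and Ddx3y lay between 0.32 and 0.68 on the 4 arrays.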

How the data were processed

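Hypothalamic RNA was labelled with Cy3 and hybridised to Agilent mouse arrays, per the labels' protocols. The deposited scanner files hold the background-subtracted intensity of each spot, made by the authors with Agilent Feature Extraction 10.7.3.1 and annotated on mm9, per the file headers. The deposited value table holds log2 values centred per probe; the sources used here do not state its scaling.

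From 43020 spots that are not controls, unflagged spots of a probe were averaged (39429 probes; 116 left out for flags). A probe was kept where a knockout group had it well above background on each array (27607), and the brightest stood for a gene. Symbols came from transcript accessions and a RefSeq table (66.1% of probes; 13374 unnamed). The 22477 genes were fitted on the 4 knockout arrays with limma 3.58.1 in R 4.3.3 (lmFit, eBayes; 3.97 total degrees of freedom; median SE 0.109; Benjamini-Hochberg at 0.05); jsonlite 2.0.0 read the labels. Array number limits precision.

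Gene lists and comparisons were chosen with earlier results of these data known. Genes named are the 12 largest calls per direction with a usual symbol (no clone or predicted-gene name), the leading members of each list, all selenoproteins, insulin and Y-linked genes, the largest bounds and the largest replicate differences. Sdc4 and Ccl21b are named outside these rules, and other exceptions are marked.

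On simulated data for this comparison (22477 genes, 200 changed) 18 of 50 genes changed by 1 log2 unit, 35 of 50 by 2, 47 of 50 by 3 and 45 of 50 by 4 were recovered, with 3 unchanged genes called. The simulated noise was independent between genes and arrays. Differences that many genes of an array share were left out, so the count of unchanged genes called does not carry over to the measured arrays. Alternatives changed background correction, scaling, filter, probe choice, eBayes options, arrays and the replicate block, or used the value table. Across genes the replicate differences of the 2 groups correlated at r = -0.0047, so the numbers do not pair the samples.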

Additional observations from a re-analysis of the deposited data

How the results depend on the processing

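The difference of each of the 53 called genes followed (the 24 largest with a usual symbol and the called list members) kept its sign under all 15 alternatives in which it could be fitted. Part of this was fixed in advance. The fits with all 6 arrays, the replicate block or trend and robust share the main difference. Leaving out 1 array cannot reverse a gene whose groups do not overlap. With the filter requiring all 4 arrays well above background, 31 of the 53 could be fitted. Counts of called genes stayed within 1.5 times of 392 with normexp (378), quantile normalization (399), median scaling (546), the value table (396), the stricter filter (357), probes averaged per gene (384) and without the area of failed spots (407, chosen after seeing the data). They were 0 with no filter on dim probes, 5 with all 6 arrays (all lower, so that 100% of calls were lower against 49.5%), and 1102 with trend and robust. Similar counts did not always hold the same genes. Of the 392, 244 were called with normexp, 279 with the stricter filter and 351 with quantile normalization. With the other settings within 1.5 times, 361 to 392 were. Counts of at least 2-fold calls were 307, and 0 with no filter, 5 with all 6 arrays and 196 with normexp. Leaving out 1 array gave 0 to 518 calls, and the same range for at least 2-fold calls; with 1 array left in a group, it is assumed to vary like the other group. Of the 518, 37.8% were lower. With the replicate number as a block 0 genes were called (smallest adjusted p 0.0946, 4774 at unadjusted p under 0.05); the numbers do not pair the samples. Of the 53 genes, 36 passed with normexp, 32 without Trsp-Ins1KO replicate 1 and 32 without replicate 2. The choroid plexus median ranged from 0.34 to 2.29 with 1 array left out. Of 41 lists, 28 kept the sign of their median under every alternative. The fits with all 6 arrays, the block or trend and robust could not change it. The causes were not tested. Signals near background limit the dim genes to bounds.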

Other observations

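Several called genes outside the lists are given here, named after their values were seen. Of genes known from vessels, some were higher in Trsp-RIPKO and others lower. Higher were the transcription factor gene Sox7 by 1.26 (-4.01 and -4.09 against -5.33 and -5.30, adjusted p = 0.0216, limma), the platelet-derived growth factor gene Pdgfb by 0.99 (adjusted p = 0.0373) and the podocalyxin gene Podxl by 0.96 (adjusted p = 0.0378). Lower were the basement membrane gene Ntn4 (difference -2.19, adjusted p = 0.0143) and the metalloproteinase inhibitor gene Timp3 (-0.74, adjusted p = 0.0469). The AMPA receptor subunit gene Gria1 was at 1.85 and 1.74 against -0.17 and -0.51 (difference 2.14, adjusted p = 0.024), and adenylyl cyclase gene Adcy1 at 3.21 and 3.07 against 2.19 and 2.12.

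Among genes lower in Trsp-RIPKO, the complement gene C2 stood at -1.21 and -0.94 against 1.26 and 1.11 (difference -2.26, adjusted p = 0.0189), the retinol saturase gene Retsat at -1.23 and -1.04 against 1.23 and 1.44 (-2.47, adjusted p = 0.0159) and the apolipoprotein gene Apoc1 at 0.97 and 0.92 against 2.57 and 2.34 (-1.51, adjusted p = 0.0274). TrspFF had 1.13 and -1.04 for C2 and 1.31 and -1.26 for Retsat.

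Within Trsp-Ins1KO the 2 arrays differed most at Rbbp9, Ttr, Trim12a, Zfp874a, Kcne2, Prim2, Ccl28 and Cldn22. The spots of Rbbp9 and Zfp874a on replicate 1 and of Trim12a on replicate 2 lay far below the other knockout arrays and may have failed. The other probe of Rbbp9 differed by -0.10 between the knockouts. Ttr and Kcne2 are choroid plexus genes.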
